A study of Mus musculus with 8 samples.

Results

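The 10 genes described here make, control and move bile acids in the liver cell: Cyp7a1, Cyp8b1, Cyp27a1, Cyp7b1, Hsd3b7 and Baat encode enzymes of synthesis, Nr1h4 and Nr0b2 encode the nuclear receptors FXR and SHP, and Slc10a1 and Abcb11 encode the transporters NTCP and BSEP. They were taken by symbol from a table of raw read counts with 55487 gene identifiers. All 10 were found once each, and all 10 were among the 15598 genes that passed the filter on low counts. Whole liver was sampled from 8 mice that the labels call female, 1 library per mouse. The groups were NemoDK_Ercc1 (n = 2, labelled NEMO DK; Ercc1-/D, aged 11.8 weeks), Ercc1 (n = 2, labelled Ercc1 -/D, aged 15.1 and 13.7 weeks) and WT (n = 4, aged 10.7, 12.3, 11.1 and 11.8 weeks). Both mutant groups carry the same Ercc1 genotype, a null allele opposite the D allele, and NemoDK_Ercc1 adds a Nemo allele whose abbreviation DK is not spelled out. No driver or tissue limit is given for any of these alleles, and no strain. ERCC1 is part of an endonuclease that works in DNA repair. NEMO is the product of Ikbkg and a non-catalytic part of the IKK complex upstream of NF-kB.

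Bile acids are made from cholesterol in hepatocytes. In the classical pathway CYP7A1 adds the first hydroxyl group and sets the rate, and CYP8B1 directs the product towards cholic acid. In the alternative pathway CYP27A1 oxidizes the side chain and CYP7B1 hydroxylates the oxysterol. HSD3B7 then acts on the sterol ring in both pathways, and BAAT joins the finished acid to taurine or glycine. Bile salts return from the gut, enter hepatocytes at the sinusoidal side mainly through NTCP and leave at the canalicular side through BSEP. FXR senses bile acids in the nucleus, raises SHP and BSEP, and SHP represses the synthesis enzymes. Transcription of Cyp7a1 also follows the daily rhythm and feeding, and Cyp7b1 is expressed more in male than in female mouse liver.

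Libraries held 21556570 and 27708729 counts in NemoDK_Ercc1, 24832698 and 26936622 counts in Ercc1, and 22209137 to 27812478 counts in WT. Levels below are CPM, counts scaled to a common library size with TMM factors. Changes are given on the log2 scale ± their standard error, from edgeR's quasi-likelihood test, and adjusted p-values are Benjamini-Hochberg values over all 15598 tested genes. The Ercc1 transcript was at 1.86 and 1.87 CPM in NemoDK_Ercc1, 1.49 and 1.76 CPM in Ercc1, and 2.57 to 5.04 CPM in WT, lower in each mutant library than in any WT library. Ikbkg was at 71.9 and 81.9 CPM in NemoDK_Ercc1, 84.0 and 93.3 CPM in Ercc1, and 56.8 to 68.4 CPM in WT, so its level does not mark the Nemo allele. WT library 3 had 0 counts of Xist and 3087 counts of 4 Y-linked genes, while the other 7 libraries had at least 9331 Xist counts and at most 10 Y-linked counts, so its RNA goes against the label of a female mouse. Where leaving this library out changed the call of a gene named below or the counts of a list, the value without it is given too. Hepatocyte markers were abundant in every library and lower in the mutants: of 16 markers, 0 rose and 8 fell in NemoDK_Ercc1 (median log2 change -0.66), and 0 rose and 9 fell in Ercc1 (median -0.69), both against WT, with 10 and 9 lower when WT library 3 was left out. Summed over the 16 markers, the level was 120582 and 121824 CPM in NemoDK_Ercc1, 119401 and 121037 CPM in Ercc1, and 163979 to 196073 CPM in WT. In bulk liver, fewer hepatocytes and less of these transcripts per hepatocyte cannot be told apart, and this holds for each bile acid gene below.

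Against WT, the bile acid genes that changed were all lower, in both mutant groups. In NemoDK_Ercc1, 6 of the 10 fell and 0 rose: Slc10a1, Abcb11, Cyp27a1, Cyp7b1, Hsd3b7 and Baat. Over all tested genes 7.4% were called lower and 10.6% higher in that comparison. In Ercc1, 5 of the 10 fell and 0 rose: Slc10a1, Cyp7a1, Cyp27a1, Baat and Nr1h4, where 9.5% of all tested genes were called lower and 11.3% higher. The median log2 change of the 10 genes was -0.68 in NemoDK_Ercc1 and -0.53 in Ercc1, against 0.0034 and -0.0010 over all tested genes. The 16 hepatocyte markers had 8 and 9 lower, with medians of -0.66 and -0.69, in the same 2 comparisons. Without WT library 3 the counts were again 6 and 5 lower, with 8.64% and 10.1% of all genes called lower. The 6 genes in NemoDK_Ercc1 were the same. In Ercc1, Cyp7b1 was then called (adjusted p = 0.00281) and Nr1h4 was not (adjusted p = 0.0570). Both comparisons use the same WT libraries and are not independent of each other.

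Between the mutant groups, NemoDK_Ercc1 against Ercc1, edgeR called 0% of all tested genes higher and 0% lower, and hence none of the 10. At an unadjusted p under 0.05 the count over all genes was 1062, limma-voom called 0 genes and DESeq2 called 69. With all 8 libraries in the fit, adding age in weeks as a covariate ended all 5 calls in Ercc1 against WT. Both Ercc1 mice were older than every other mouse, so age and genotype cannot be told apart there. Leaving out 1 library moved the number of the 10 genes called in NemoDK_Ercc1 from 6 to 1 without either NemoDK_Ercc1 library and to 3 without either Ercc1 library. In Ercc1 it moved from 5 to 1 without Ercc1 library 1, to 3 without Ercc1 library 2 or WT library 2, and to 2 without WT library 4 or either NemoDK_Ercc1 library. The call counts over all genes also shift with the scaling. In Ercc1 against WT, 1761 genes were higher and 1482 lower with TMM factors, 3765 and 690 when scaled by library size only, and 2079 and 1141 with upper-quartile factors. In NemoDK_Ercc1 against WT the higher and lower counts were 1646 and 1154 with TMM, 3508 and 490 when scaled by library size only, and 2048 and 783 with upper-quartile factors. Library size alone moved the median log2 change of all genes to 0.27 in NemoDK_Ercc1 and 0.26 in Ercc1, and upper-quartile factors moved it to 0.10 and 0.07.

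**Figure D1:**
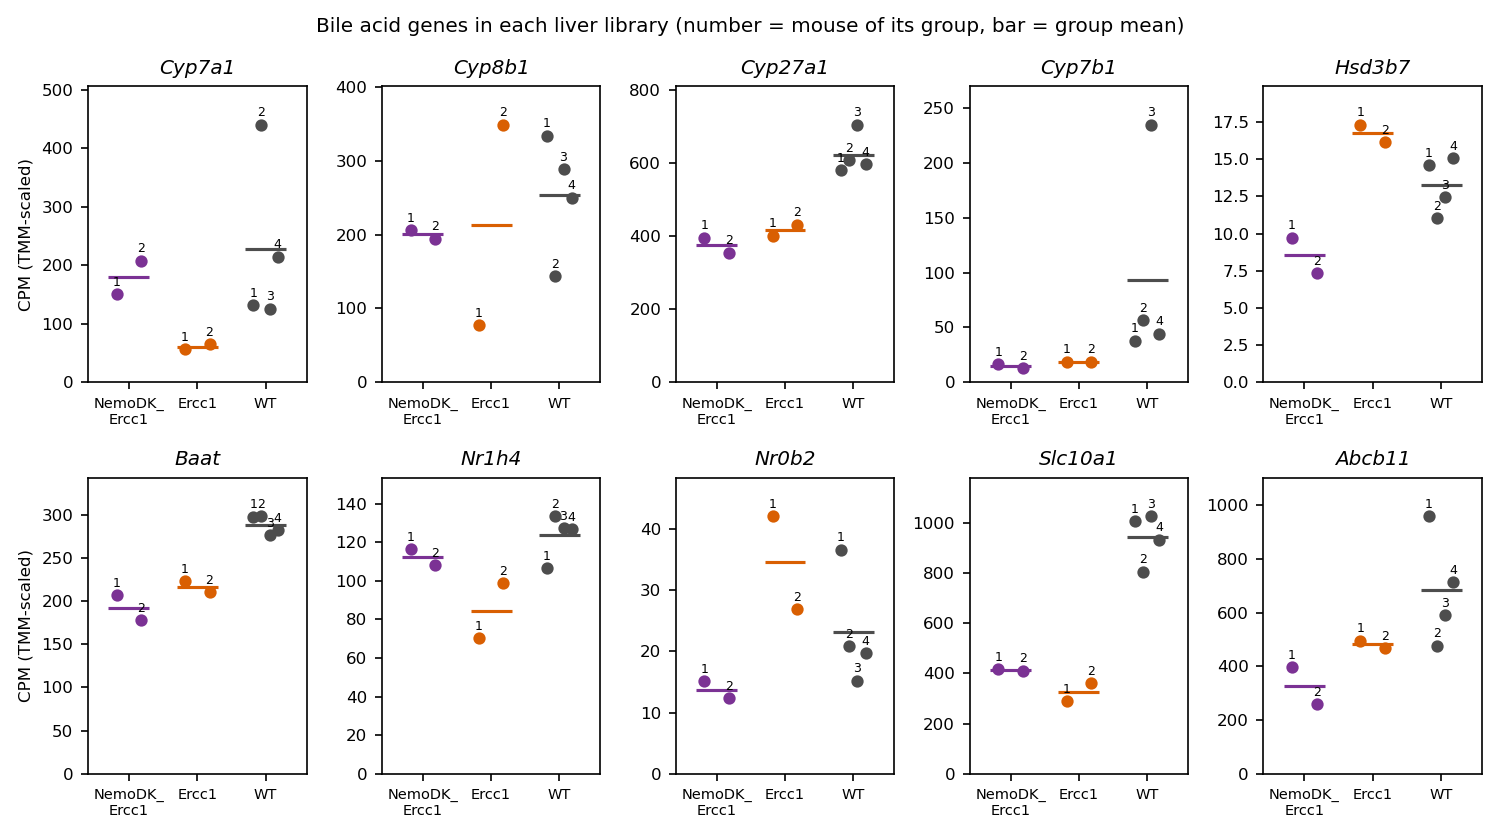
CPM of the 10 bile acid genes (vertical axis, linear from 0) in each of the 8 liver libraries, grouped on the horizontal axis as NemoDK_Ercc1, Ercc1 and WT, with each point numbered by its mouse and a bar at the group mean. Slc10a1, Cyp27a1, Baat and Cyp7b1 lie below every WT point in all 4 mutant libraries, Cyp7a1 is lowest in both Ercc1 libraries, and WT library 3 stands apart in Cyp7b1.

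The promoters of Abcb11, Nr0b2 and Cyp8b1 are shown because they join the members of the feedback loop: Nr0b2 and Abcb11 are textbook FXR targets and Cyp8b1 is repressed through SHP, which acts on NR5A2 (LRH-1) and HNF4A at such promoters. Each runs from 250 bases before to 50 bases after the start of transcription, 5′ to 3′ on the gene's strand, from RefSeq on GRCm38.p6. Of the 10 genes, 7 matched the promoter table and Cyp7a1, Cyp7b1 and Baat did not. Capitals mark the letters of an inverted repeat AGGTCANTGACCT with up to 2 mismatches, of a direct repeat AGGTCANAGGTCA with up to 2 mismatches, of CAAGGNCA (the NR5A2 letters) or of TATAAA, searched on both strands. The Abcb11 promoter is at chr2:69342567-69342866 on the minus strand, that of Nr0b2 at chr4:133553126-133553425 on the plus strand, and that of Cyp8b1 at chr9:121916256-121916555 on the minus strand.
Abcb11 promoter: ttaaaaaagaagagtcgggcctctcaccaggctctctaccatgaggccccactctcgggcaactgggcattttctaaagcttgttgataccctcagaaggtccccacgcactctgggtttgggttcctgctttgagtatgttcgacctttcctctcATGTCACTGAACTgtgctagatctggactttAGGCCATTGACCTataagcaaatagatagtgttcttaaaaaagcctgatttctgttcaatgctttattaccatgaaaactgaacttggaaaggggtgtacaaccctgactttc
Nr0b2 promoter: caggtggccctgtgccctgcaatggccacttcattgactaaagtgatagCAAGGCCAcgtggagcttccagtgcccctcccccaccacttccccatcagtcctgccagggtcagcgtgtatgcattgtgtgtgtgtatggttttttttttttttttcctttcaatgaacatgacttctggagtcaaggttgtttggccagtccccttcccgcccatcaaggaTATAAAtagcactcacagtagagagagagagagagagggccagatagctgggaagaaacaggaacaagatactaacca
Cyp8b1 promoter: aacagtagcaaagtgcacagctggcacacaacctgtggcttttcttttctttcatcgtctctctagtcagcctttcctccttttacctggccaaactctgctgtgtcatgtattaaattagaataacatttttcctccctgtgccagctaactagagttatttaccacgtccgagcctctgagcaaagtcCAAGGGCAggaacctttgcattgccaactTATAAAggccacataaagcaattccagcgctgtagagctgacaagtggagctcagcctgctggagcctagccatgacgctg

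The Abcb11 window held the inverted repeat at 2 places: aggccattgacct at positions -63 to -51 with 1 mismatch, and atgtcactgaact at -94 to -82 with 2 mismatches, counted from the first transcribed base as 1. These letters occurred in 1.14% of 32851 promoter windows of the same length and in 1 of the 8 windows of the matched members (Slc10a1 has 2). The Nr0b2 window did not hold the inverted repeat. The NR5A2 letters were found in Nr0b2 at -201 to -194 and in Cyp8b1 at -60 to -53. They were in 2 of the 8 member windows, against 6.71% of all windows. TATAAA began at -28 in Nr0b2 and at -31 in Cyp8b1. A Slc10a1 window held it on the opposite strand at -128 to -123. It was in 3 of the 8 member windows, against 13.6% of all windows. The direct repeat occurred in 3.86% of all windows and among the members only in that of Nr1h4, where it contains the single half-site AGGTCA of that window. These are matches of letters and not measured binding.

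The rate-limiting enzyme gene Cyp7a1 (chr4:6265612-6275633, minus strand, GRCm38, 6 exon blocks) was at 150.4 and 208 CPM in NemoDK_Ercc1 libraries 1 and 2, 56.2 and 64.6 CPM in Ercc1 libraries 1 and 2, and 132, 440.2, 126 and 214 CPM in WT libraries 1 to 4. Both Ercc1 livers lay below all WT livers, while the NemoDK_Ercc1 livers lay inside the WT range and above both Ercc1 livers. Cyp7a1 fell in Ercc1 by 1.92 ± 0.52 (adjusted p = 0.0319). In NemoDK_Ercc1 it differed from WT by -0.35 ± 0.47 (adjusted p = 0.648, 95% interval -1.43 to 0.73). The difference between the mutant groups was 1.57 ± 0.55 (95% interval 0.31 to 2.83, unadjusted p = 0.0202) and was not called over all genes (adjusted p = 0.671), with 3.19 when age was a term (adjusted p = 0.680). WT livers themselves spread 3.50-fold, with WT library 2 the highest, and leaving that library out turned the NemoDK_Ercc1 value to 0.19 (adjusted p = 0.657). The adjusted p passed 0.05 when WT 4 (-1.95, p 0.0546), Ercc1 1 (-1.82, p 0.175), Ercc1 2 (-2.02, p 0.127), NemoDK_Ercc1 1 (-1.92, p 0.0509) or NemoDK_Ercc1 2 (-1.92, p 0.0506) was left out, in a fit of only the 2 groups (-1.91, 0.0514) and with age as a covariate (-3.61, 0.124).

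Cyp8b1, the sterol 12-alpha-hydroxylase gene (chr9:121914356-121916305, minus strand, a single exon), was at 207 and 195 CPM in NemoDK_Ercc1, 76.9 and 349 CPM in Ercc1, and 334, 144, 289 and 250.1 CPM in WT libraries 1 to 4. The 2 Ercc1 livers held both the lowest and the highest value of all 8 libraries, 4.54-fold apart. The group differences were -0.34 ± 0.52 in NemoDK_Ercc1 against WT (95% interval -1.53 to 0.85, adjusted p = 0.688) and -0.25 ± 0.52 in Ercc1 against WT (-1.44 to 0.93, adjusted p = 0.761). The wide intervals leave room for a fall or a rise. Its direction in Ercc1 turned on a single mouse: leaving out Ercc1 library 1 gave 0.46 (adjusted p = 0.478) and leaving out Ercc1 library 2 gave -1.73 (adjusted p = 0.0459), while age as a covariate gave 2.49 (adjusted p = 0.138). Ercc1 library 1, the mouse of 15.1 weeks, also had the highest Nr0b2 and the lowest Nr1h4 of the 8 libraries.

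Of the alternative pathway, Cyp27a1 (chr1:74713574-74737892, plus strand) was at 395 and 354 CPM in NemoDK_Ercc1, 401 and 431 CPM in Ercc1, and 580.2, 607, 705 and 597 CPM in WT libraries 1 to 4. All 4 mutant livers lay below all WT livers. It fell in NemoDK_Ercc1 by 0.73 ± 0.14 (adjusted p = 0.00979) and in Ercc1 by 0.58 ± 0.14 (adjusted p = 0.0199). The NemoDK_Ercc1 call ended without NemoDK_Ercc1 library 1 (-0.81, adjusted p = 0.0788) or 2 (-0.66, 0.125). The Ercc1 call ended without Ercc1 library 1 (-0.53, adjusted p = 0.126) or 2 (-0.63, 0.0700), with library size alone (-0.32, 0.123) and with age as a covariate (-0.44, 0.563).

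Cyp7b1, the oxysterol 7-alpha-hydroxylase gene (chr3:18071950-18243338, minus strand), was at 16.6 and 13.0 CPM in NemoDK_Ercc1, 18.6 and 18.7 CPM in Ercc1, and 37.8, 56.9, 235 and 44.3 CPM in WT libraries 1 to 4. All 4 mutant livers lay below all WT livers, and WT library 3, whose RNA goes against its label of female, was 5.08-fold above the mean of the other WT livers. With all libraries Cyp7b1 fell in NemoDK_Ercc1 by 2.66 ± 0.78 (adjusted p = 0.0477), and the Ercc1 value was -2.33 ± 0.76 (adjusted p = 0.0620). Without WT library 3 the falls were smaller and their errors much smaller: -1.65 ± 0.19 in NemoDK_Ercc1 (adjusted p = 0.00117) and -1.29 ± 0.19 in Ercc1 (adjusted p = 0.00281). The level was 14.8 ± 2.52 CPM in NemoDK_Ercc1 and 18.7 ± 0.11 CPM in Ercc1 (SD, n = 2 each), against 46.3 ± 9.70 CPM in the other 3 WT livers (SD, n = 3). With WT 3 kept, the NemoDK_Ercc1 call was lost on leaving out WT 2 (-2.84, adjusted p 0.0511), Ercc1 1 (-2.66, 0.0711), Ercc1 2 (-2.66, 0.0713), NemoDK_Ercc1 1 (-2.85, 0.212) or NemoDK_Ercc1 2 (-2.50, 0.247). It was also lost under library size alone (-2.41, 0.0517), upper-quartile factors (-2.55, 0.0505), limma-voom (-2.21, 0.0544), a fit of the pair of groups alone (-2.66, 0.0719) and the age term (-2.47, 0.0755). In Ercc1, Cyp7b1 was called lower on leaving out WT 1 (-2.57, adjusted p 0.0438), with no low-count filter (-2.32, 0.00150) and by DESeq2 (-2.32, 0.0266). With the age term the Ercc1 value shrank to -0.96 (adjusted p = 0.840).

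**Figure D2:**
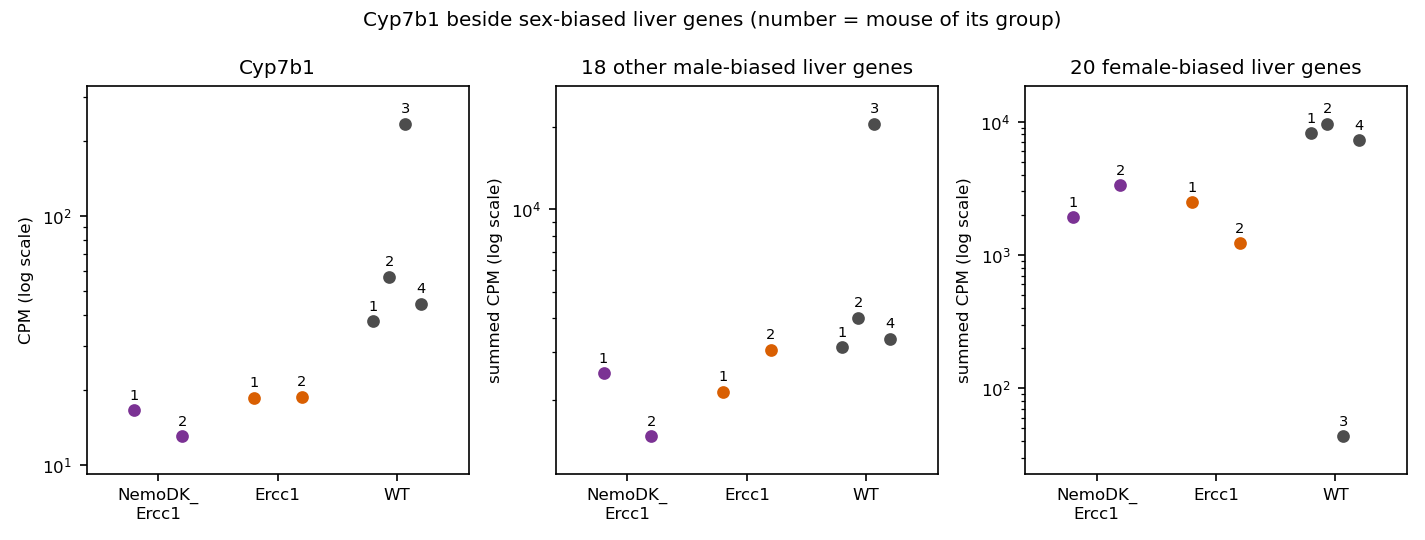
CPM of Cyp7b1 (left), summed CPM of 18 other male-biased liver genes (middle) and of 20 female-biased liver genes (right) on log axes, by library in NemoDK_Ercc1, Ercc1 and WT, each point numbered by its mouse. WT library 3 is highest in both left panels and lowest in the right one, and all 4 mutant libraries lie below the other 3 WT libraries in each panel.

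Because Cyp7b1 is sex-biased, it was set beside lists of other sex-biased liver genes without WT library 3. Of 17 male-biased genes tested, 7 rose and 3 fell in NemoDK_Ercc1 (median log2 change 0.16), and 8 rose and 3 fell in Ercc1 (median 0.63). Of 20 female-biased genes, 0 rose and 11 fell in NemoDK_Ercc1 (median -1.63), and 0 rose and 18 fell in Ercc1 (median -2.21). The 3 male-biased genes that fell were Serpina1e (-5.07 in NemoDK_Ercc1 and -4.66 in Ercc1), Hsd3b5 (-4.38 and -3.50) and Mup3 (-2.37 and -1.50). The summed male-biased level was 2515 and 1476 CPM in NemoDK_Ercc1 and 2146 and 3064 CPM in Ercc1. In WT libraries 1, 2 and 4 it was 3120, 4005 and 3363 CPM, of which Mup3 made up 1829, 2734 and 1862 CPM. Whether the fall of Cyp7b1 belongs to this pattern was not tested. With WT library 3 kept, the male-biased list had 0 higher and 2 lower in NemoDK_Ercc1 and 0 higher and 1 lower in Ercc1, and the female-biased list 0 higher in both and 1 and 0 lower. Slco1a1, a male-biased organic anion carrier that also takes up bile acids (named after its value was seen), differed from WT by -0.59 ± 0.25 in NemoDK_Ercc1 (adjusted p = 0.135) and by -0.38 ± 0.25 in Ercc1 (adjusted p = 0.312) without that library.

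Hsd3b7 (chr7:127800604-127803802, plus strand), the ring dehydrogenase gene shared by both pathways, was at 9.73 and 7.33 CPM in NemoDK_Ercc1, 17.3 and 16.2 CPM in Ercc1, and 14.6, 11.0, 12.4 and 15.1 CPM in WT libraries 1 to 4. The 3 groups did not overlap: NemoDK_Ercc1 lay below WT and Ercc1 above it. It fell in NemoDK_Ercc1 by 0.64 ± 0.18 (adjusted p = 0.0402), and the Ercc1 value against WT was 0.33 ± 0.17 (95% interval -0.05 to 0.72, adjusted p = 0.198). NemoDK_Ercc1 against Ercc1 gave -0.97 ± 0.20 (95% interval -1.43 to -0.51, unadjusted p = 0.00103), which edgeR did not call over all genes (adjusted p = 0.539), DESeq2 did (-0.99, adjusted p = 0.0175) and edgeR without a low-count filter did (-0.97, 0.0480). The fall against WT was no longer called on leaving out WT 1 (-0.60, adjusted p 0.0778), WT 4 (-0.57, 0.0841), Ercc1 1 (-0.64, 0.0557), Ercc1 2 (-0.64, 0.0561), NemoDK_Ercc1 1 (-0.86, 0.0886) or NemoDK_Ercc1 2 (-0.45, 0.283). The same held under library size alone (-0.37, 0.161), upper-quartile factors (-0.54, 0.0745), a fit of the pair of groups alone (-0.63, 0.0582) and the age term (-0.62, 0.0622). With library size alone the Ercc1 value was called higher (0.60, adjusted p = 0.0325). Exons of Hsd3b7 overlap those of Gm49388 on the same strand and of 9430064I24Rik on the other, so its counts are less certain.

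Baat (chr4:49489422-49506557, minus strand), whose product conjugates bile acids, was at 207 and 178 CPM in NemoDK_Ercc1, 223 and 210.4 CPM in Ercc1, and 298, 299, 276 and 282 CPM in WT libraries 1 to 4. The 8 libraries spread little within groups, and all mutant livers lay below all WT livers. Baat fell in NemoDK_Ercc1 by 0.59 ± 0.12 (adjusted p = 0.0145) and in Ercc1 by 0.41 ± 0.12 (adjusted p = 0.0435). The NemoDK_Ercc1 call ended without NemoDK_Ercc1 library 1 (-0.70, adjusted p = 0.0809) or 2 (-0.48, 0.178) and with library size alone (-0.32, 0.0813). The Ercc1 call was close to the threshold and held when WT library 3 was left out, but ended without each of the other 7 libraries: WT 1 (-0.38, adjusted p = 0.0919), WT 2 (-0.40, 0.0678), WT 4 (-0.43, 0.0713), Ercc1 1 (-0.46, 0.133), Ercc1 2 (-0.38, 0.178), NemoDK_Ercc1 1 (-0.42, 0.0784) and NemoDK_Ercc1 2 (-0.42, 0.0788). Other settings that ended it were library size alone (-0.15, 0.373), upper-quartile factors (-0.34, 0.0845), no low-count filter (-0.41, 0.108), a fit of the pair of groups alone (-0.41, 0.0778) and the age term (-0.50, 0.455).

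**Figure D3:**
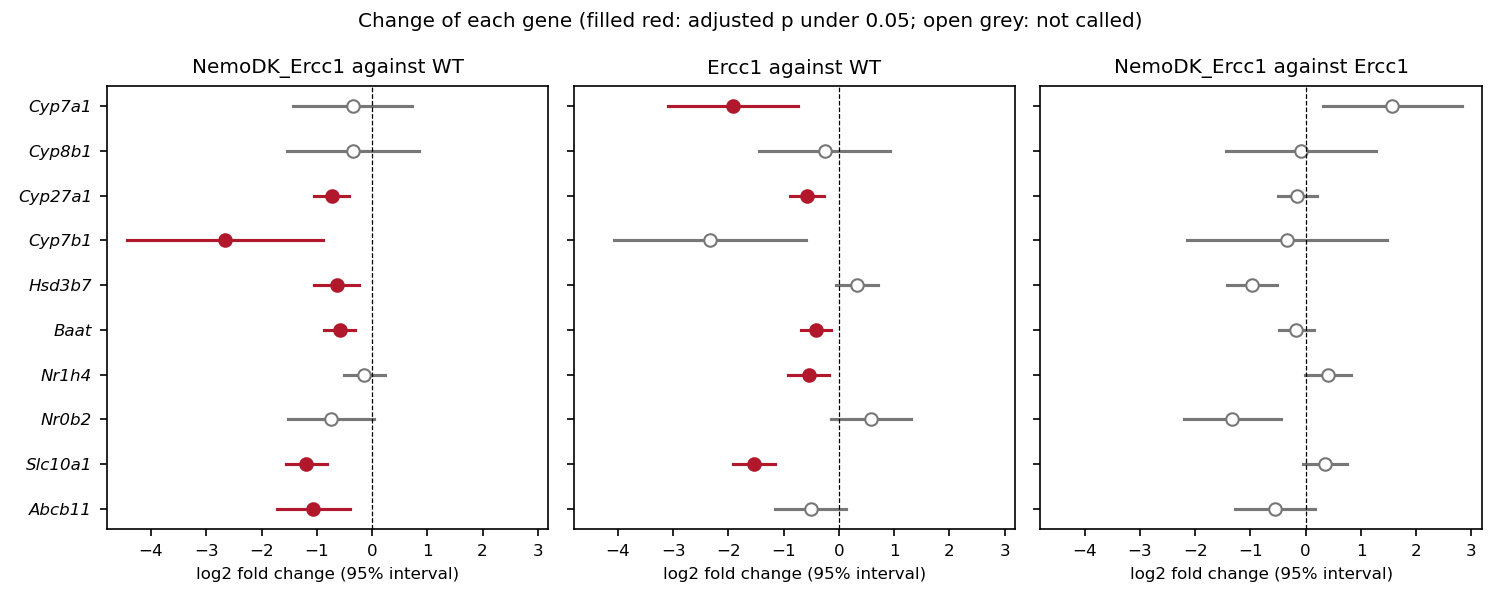
Log2 fold change (point) with its 95% interval (line, horizontal axis) of the 10 bile acid genes in NemoDK_Ercc1 against WT, Ercc1 against WT and NemoDK_Ercc1 against Ercc1, filled red where the adjusted p is under 0.05. In the first panel 6 genes are called and in the second 5, all left of 0, and in the third none is called although the intervals of Cyp7a1, Hsd3b7 and Nr0b2 do not reach 0.

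Nr1h4, the FXR gene (chr10:89454234-89533585, minus strand), was at 116 and 108 CPM in NemoDK_Ercc1, 70.3 and 98.7 CPM in Ercc1, and 106, 134, 127 and 127 CPM in WT libraries 1 to 4. The Ercc1 livers lay below all others, and the NemoDK_Ercc1 livers lay within the WT range. Nr1h4 fell in Ercc1 by 0.55 ± 0.16 (adjusted p = 0.0447) and differed from WT by -0.14 ± 0.16 in NemoDK_Ercc1 (95% interval -0.50 to 0.23, adjusted p = 0.587). Between the mutant groups the difference was 0.41 ± 0.18 (adjusted p = 0.732). The Ercc1 call held without WT library 1 or Ercc1 library 2 and was lost on leaving out WT 2 (-0.51, adjusted p 0.0782), WT 3 (-0.52, 0.0570), WT 4 (-0.54, 0.0840), Ercc1 1 (-0.33, 0.266), NemoDK_Ercc1 1 (-0.55, 0.0788) or NemoDK_Ercc1 2 (-0.55, 0.0788). Library size alone (-0.28, 0.223), upper-quartile factors (-0.47, 0.0688), a fit of the pair of groups alone (-0.54, 0.0796) and the age term (-0.44, 0.611) ended it too.

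Nr0b2, the SHP gene whose promoter letters are given above (chr4:133553376-133556536, plus strand), was at 15.2 and 12.4 CPM in NemoDK_Ercc1, 42.1 and 27.0 CPM in Ercc1, and 36.6, 20.9, 15.2 and 19.7 CPM in WT libraries 1 to 4. NemoDK_Ercc1 lay below the WT livers, with NemoDK_Ercc1 library 1 level with WT library 3 after rounding, and Ercc1 overlapped WT through WT library 1. The values against WT were -0.74 ± 0.34 in NemoDK_Ercc1 (95% interval -1.52 to 0.03, adjusted p = 0.162) and 0.58 ± 0.32 in Ercc1 (-0.15 to 1.31, adjusted p = 0.228), neither called. With no low-count filter the NemoDK_Ercc1 value was called lower (-0.75, adjusted p = 0.0477). Without WT library 1 the Ercc1 value was called higher (0.91, adjusted p = 0.0295). NemoDK_Ercc1 against Ercc1 gave -1.33 ± 0.38 (95% interval -2.20 to -0.45, unadjusted p = 0.00773, adjusted p = 0.637), and without a low-count filter -1.33 with an adjusted p of 0.0413. In the same pair of groups Cyp7a1, which SHP represses, had a difference of the opposite sign, 1.57 ± 0.55, also not called. The other enzyme genes had the same sign as Nr0b2: Cyp8b1 (-0.09), Cyp27a1 (-0.15), Cyp7b1 (-0.33), Hsd3b7 (-0.97) and Baat (-0.17). A part of SHP in these differences was not tested.

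Slc10a1, the gene of the sinusoidal bile salt carrier NTCP (chr12:80953183-80968705, minus strand), had the smallest p of the 10 genes against WT. It was at 417 and 411 CPM in NemoDK_Ercc1, 289.6 and 361 CPM in Ercc1, and 1007, 806, 1027 and 933 CPM in WT libraries 1 to 4. Every mutant liver was below every WT liver, with no library near the other group. Slc10a1 fell in NemoDK_Ercc1 by 1.19 ± 0.16 (adjusted p = 0.00256), to 0.439 of the WT level, and in Ercc1 by 1.54 ± 0.16 (adjusted p = 9.01e-04), to 0.345 of it. In NemoDK_Ercc1 the call held under all 17 alternatives tried, with the change between -1.26 and -0.92. In Ercc1 it held under 16 of 17, from -1.70 to -1.27, and ended with age as a covariate (-0.92, adjusted p = 0.220). Among the 16 hepatocyte markers the changes ran from -1.64 to -0.17 in NemoDK_Ercc1 and from -1.79 to -0.40 in Ercc1, with medians of -0.66 and -0.69. The Slc10a1 fall is inside their range and larger than their median in both mutant groups.

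Abcb11, the gene of the canalicular bile salt export pump (chr2:69238282-69342616, minus strand), was at 396 and 259 CPM in NemoDK_Ercc1, 495 and 467 CPM in Ercc1, and 959, 477, 589 and 714 CPM in WT libraries 1 to 4. Both NemoDK_Ercc1 livers lay below all others, and the Ercc1 livers lay around the lowest WT liver. Abcb11 fell in NemoDK_Ercc1 by 1.06 ± 0.29 (adjusted p = 0.0375), and the Ercc1 value was -0.51 ± 0.28 (95% interval -1.15 to 0.13, adjusted p = 0.232). The difference between the mutant groups was -0.55 ± 0.32 (95% interval -1.28 to 0.17, adjusted p = 0.784). The NemoDK_Ercc1 call held without WT library 2 or 3 and was lost on leaving out WT 1 (-0.86, adjusted p 0.0504), WT 4 (-1.04, 0.0712), Ercc1 1 (-1.07, 0.0567), Ercc1 2 (-1.07, 0.0571), NemoDK_Ercc1 1 (-1.40, 0.0933) or NemoDK_Ercc1 2 (-0.79, 0.265). So it was under library size alone (-0.79, 0.0692), upper-quartile factors (-0.97, 0.0544), a fit of the pair of groups alone (-1.06, 0.0579) and the age term (-0.95, 0.0580). Exons of Abcb11 overlap the predicted genes Gm13613 and Gm13614 on the other strand.

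Levels can be compared between genes only per length, here as CPM per kilobase of annotated exon. In NemoDK_Ercc1 the order was Slc10a1 (188 ± 2.18, SD, n = 2), Cyp27a1 (173 ± 13.3), Cyp8b1 (103 ± 4.36), Baat (99.1 ± 10.5), Abcb11 (63.6 ± 18.7), Nr1h4 (48.8 ± 2.48), Cyp7a1 (42.9 ± 9.73), Nr0b2 (12.2 ± 1.74), Cyp7b1 (6.83 ± 1.16) and Hsd3b7 (3.08 ± 0.61). In Ercc1 it was Cyp27a1 (191 ± 9.82), Slc10a1 (148 ± 22.9), Baat (112 ± 4.49), Cyp8b1 (109 ± 98.8), Abcb11 (93.5 ± 3.81), Nr1h4 (36.7 ± 8.74), Nr0b2 (30.5 ± 9.47), Cyp7a1 (14.5 ± 1.42), Cyp7b1 (8.61 ± 0.050) and Hsd3b7 (6.05 ± 0.30). WT had Slc10a1 (429 ± 45.6, n = 4), Cyp27a1 (286 ± 25.8), Baat (149 ± 5.82), Abcb11 (133 ± 40.2), Cyp8b1 (130.4 ± 41.7), Cyp7a1 (54.6 ± 35.2), Nr1h4 (53.7 ± 5.13), Cyp7b1 (43.2 ± 43.7), Nr0b2 (20.4 ± 8.25) and Hsd3b7 (4.80 ± 0.69). The order is loose in its middle, where the library ranges of neighbours overlapped. In NemoDK_Ercc1 this held for Cyp8b1 and Baat, for Abcb11 and Nr1h4, and for Nr1h4 and Cyp7a1. In Ercc1 it held for Baat, Cyp8b1 and Abcb11 and for Nr1h4 and Nr0b2, and Cyp8b1 at 39.4 and 179 also spanned Slc10a1 and reached into the range of Nr1h4. In WT each neighbour from Baat down to Nr0b2 overlapped the next. Without WT library 3 the WT level of Cyp7b1 was 21.4 ± 4.48 (n = 3), below Nr0b2 at 22.7 ± 8.34 with overlapping ranges, and no longer reached Nr1h4 at 53.1 ± 6.14. Cyp27a1 stood above Slc10a1 in both Ercc1 libraries and below it in every NemoDK_Ercc1 and WT library.

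The rest of the pathway was read from lists of genes by role. Of 20 other synthesis enzymes and cholesterol carriers, 18 were tested, and 0 rose and 4 fell in NemoDK_Ercc1 (median log2 change -0.38), while 1 rose and 4 fell in Ercc1 (median -0.29), both against WT. Cyp39a1, which hydroxylates 24-hydroxycholesterol, fell in NemoDK_Ercc1 to 15.0 ± 0.97 CPM and in Ercc1 to 17.4 ± 6.65 CPM, against 46.1 ± 12.6 CPM in WT (-1.62 ± 0.32, adjusted p = 0.0110, and -1.41 ± 0.31, adjusted p = 0.0157). Cyp46a1, which makes that oxysterol, fell in NemoDK_Ercc1 (-1.11 ± 0.31, adjusted p = 0.0421) and in Ercc1 (-2.23 ± 0.34, adjusted p = 0.00356). Without WT library 3 its NemoDK_Ercc1 value was -0.98 (adjusted p = 0.0540), not called, and Acnat2 was called in its place (-2.22, adjusted p = 0.0121, named after its value was seen), so that the list again had 4 lower. The sterol carrier gene Stard4 also fell in both (-0.79 ± 0.22, adjusted p = 0.0379, and -1.03 ± 0.22, adjusted p = 0.0137). Acnat1, related in sequence to Baat, fell in NemoDK_Ercc1 (-0.53 ± 0.13, adjusted p = 0.0238) and was at -0.04 ± 0.12 in Ercc1 (adjusted p = 0.853). In Ercc1, Akr1c14 also fell (-0.75 ± 0.20, adjusted p = 0.0298), and the single gene of this list that rose was Acox2, an oxidase of the peroxisomal side-chain shortening (0.71 ± 0.19, adjusted p = 0.0319, both named after their values were seen).

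Of 7 other genes of sinusoidal uptake, 1 rose and 2 fell in NemoDK_Ercc1 and likewise in Ercc1, and without WT library 3 there were 3 lower in each. Slco1b2, an organic anion carrier that takes up bile acids, fell in NemoDK_Ercc1 (-0.74 ± 0.20, adjusted p = 0.0382) and Ercc1 (-0.75 ± 0.20, adjusted p = 0.0328). Slco2b1 fell in NemoDK_Ercc1 (-0.95 ± 0.15, adjusted p = 0.00551) and Ercc1 (-0.83 ± 0.15, adjusted p = 0.00769). The gene that rose was Ephx1, microsomal epoxide hydrolase, at 763 and 718 CPM in NemoDK_Ercc1, 662 and 874 CPM in Ercc1, and 179 to 287 CPM in WT (1.55 ± 0.20, adjusted p = 0.00218, and 1.60 ± 0.20, adjusted p = 0.00168).

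Of 9 other canalicular genes, 0 rose and 1 fell in NemoDK_Ercc1 (median 0.35), and 1 rose and 1 fell in Ercc1 (median 0.0050). Atp8b1, a phospholipid flippase of the canalicular membrane, fell in both (-0.89 ± 0.20, adjusted p = 0.0172, and -0.65 ± 0.19, adjusted p = 0.0435), and Abcb4, the phosphatidylcholine exporter gene, rose in Ercc1 (0.90 ± 0.26, adjusted p = 0.0392) and was at 0.64 ± 0.26 in NemoDK_Ercc1 (adjusted p = 0.120). Without WT library 3 both Ercc1 calls were lost, with Abcb4 at 0.85 (adjusted p = 0.0508) and Atp8b1 at -0.51 (adjusted p = 0.0579). The canalicular gene that then rose in Ercc1 was Abcg2, an efflux pump gene named after its value was seen (1.27, adjusted p = 4.29e-04), and 0 fell. In NemoDK_Ercc1, 3 then rose and 1 fell: Abcg2 (1.11, adjusted p = 8.37e-04), the copper transporter gene Atp7b (0.42, adjusted p = 0.0356) and the sterol exporter gene Abcg5 (0.70, adjusted p = 0.0487) were higher. With that library kept, Abcg2, Atp7b and Abcg5 were called in neither mutant group. Of 14 genes of basolateral efflux and detoxification, 13 were tested, with 2 higher and 0 lower in NemoDK_Ercc1 and 2 higher and 1 lower in Ercc1. Cyp3a11, a hydroxylase of bile acids and drugs, was at 2675 and 2281 CPM in NemoDK_Ercc1, 1661 and 3029 CPM in Ercc1, and 331 to 965 CPM in WT, and rose in both (2.12 ± 0.40, adjusted p = 0.00980, and 2.04 ± 0.40, adjusted p = 0.00968). Abcc3, the basolateral exporter gene, rose in NemoDK_Ercc1 (0.80 ± 0.21, adjusted p = 0.0332) and was at 0.67 ± 0.21 in Ercc1 (adjusted p = 0.0543). Slc51b, a subunit of the organic solute transporter and an FXR target, was low, at 4.96 and 4.58 CPM in NemoDK_Ercc1, 9.53 and 3.16 CPM in Ercc1, and 0.480 to 2.28 CPM in WT. It rose in Ercc1 (2.18 ± 0.55, adjusted p = 0.0247) and was at 1.77 ± 0.55 in NemoDK_Ercc1 (adjusted p = 0.0580). Slc51a, the gene of the other subunit (named after its value was seen), had 1 count in WT library 3 and 0 in every other library. Cyp3a25 fell in Ercc1 (-0.71 ± 0.18, adjusted p = 0.0251), and without WT library 3 the list had 3 higher and 2 lower in NemoDK_Ercc1 and 2 higher and 4 lower in Ercc1.

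**Figure D4:**
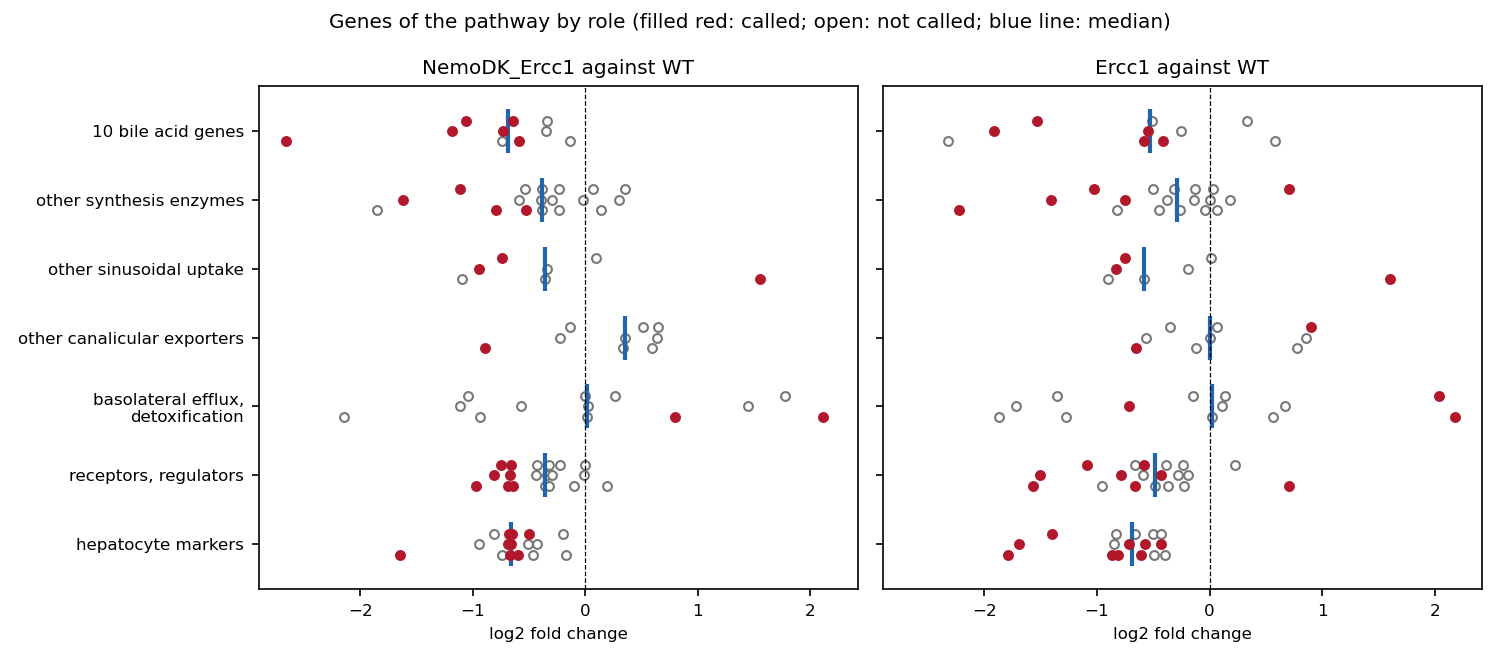
Log2 fold change (horizontal axis) of each tested gene, one point per gene, by role (rows) in NemoDK_Ercc1 against WT and Ercc1 against WT, filled red where called, with a blue line at the median of the row. The row medians of the 10 genes, the other enzymes, uptake, regulators and hepatocyte markers lie left of 0, while the rows of export and detoxification hold called points on both sides in Ercc1.

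Among 22 receptors and regulators of bile acid synthesis, 19 were tested, with 0 higher and 7 lower in NemoDK_Ercc1 (median -0.36) and 1 higher and 7 lower in Ercc1 (median -0.49), or 8 lower in Ercc1 without WT library 3. Nr5a2, the LRH-1 gene, was at 47.6 ± 3.84 CPM in NemoDK_Ercc1, 47.1 ± 7.21 CPM in Ercc1 and 74.5 ± 4.33 CPM in WT, and fell in both mutants (-0.65 ± 0.13, adjusted p = 0.0110, and -0.66 ± 0.13, adjusted p = 0.00870). Klb, the co-receptor gene for the gut hormone FGF15 that restrains Cyp7a1, fell in both (-0.75 ± 0.20, adjusted p = 0.0344, and -1.09 ± 0.20, adjusted p = 0.00788). Its partner receptor gene Fgfr4, likewise chosen by its value, fell in NemoDK_Ercc1 (-0.69 ± 0.14, adjusted p = 0.0122) and was at -0.38 ± 0.14 in Ercc1 (adjusted p = 0.0769). Nr1i3, the CAR gene, fell in both (-0.97 ± 0.24, adjusted p = 0.0271, and -1.57 ± 0.25, adjusted p = 0.00414), while Ppargc1a, a coactivator of Cyp7a1 in fasting, fell in Ercc1 (-1.50 ± 0.24, adjusted p = 0.00425) and was at -0.29 ± 0.22 in NemoDK_Ercc1 (adjusted p = 0.392). In Ercc1 the one gene that rose was the bile acid receptor gene S1pr2 (0.70 ± 0.19, adjusted p = 0.0355, named after its value was seen).

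Genes that supply cholesterol were mostly not called: of 14, 1 rose and 3 fell in NemoDK_Ercc1, and 1 rose and 2 fell in Ercc1. Abca1, the cholesterol efflux gene, fell in both, to 62.1 ± 0.068 CPM in NemoDK_Ercc1 (adjusted p = 0.0124) and 62.6 ± 5.72 CPM in Ercc1 (adjusted p = 0.0114), against 124 ± 29.6 CPM in WT. Npc1l1, the cholesterol uptake gene, had 31 and 15 counts in NemoDK_Ercc1, 36 and 27 counts in Ercc1, and 1 count over all 4 WT libraries. The circadian list had 0 higher and 2 lower of 17 in NemoDK_Ercc1 (median -0.31) and 0 higher and 7 lower in Ercc1 (median -1.30), and without WT library 3 it had 1 higher and 1 lower in NemoDK_Ercc1. In NemoDK_Ercc1 against Ercc1, 0 of the list were called, but log2 changes ran from -3.58 to 3.96 (median 1.08). Per1 was at 53.5 and 90.3 CPM in NemoDK_Ercc1, 10.8 and 8.28 CPM in Ercc1, and 39.1 to 88.3 CPM in WT. Nfil3 lay the other way, at 6.64 and 8.39 CPM in NemoDK_Ercc1, 25.9 and 19.8 CPM in Ercc1, and 11.8 to 32.1 CPM in WT. The labels give no hour of collection or feeding state, so for Cyp7a1, which follows both, their part was not tested.

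Markers of other cell types moved with the genotype too. Of 12 macrophage markers, 7 rose and 0 fell in NemoDK_Ercc1 and likewise in Ercc1, with summed levels of 431 and 469 CPM in NemoDK_Ercc1, 287 and 474 CPM in Ercc1, and 176 to 329 CPM in WT. Of 14 cholangiocyte markers, 12 were tested and 2 rose and 0 fell in each mutant group (3 rose without WT library 3), with sums of 275 and 299.8 CPM in NemoDK_Ercc1, 278 and 306 CPM in Ercc1, and 215 to 259 CPM in WT. Stellate and endothelial markers, 12 in all, had 4 higher and 1 lower in NemoDK_Ercc1 and 3 higher and 1 lower in Ercc1, with sums of 376 and 389.9 CPM in NemoDK_Ercc1, 277 and 431 CPM in Ercc1, and 302 to 346 CPM in WT. Their part in the values of the bile acid genes was not tested. A summed level depends on the genes chosen and does not measure the share of a cell type. In the hepatocyte sum, Alb alone was at 62711 to 106272 CPM.

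The genes whose log2 CPM followed each member most closely over the 8 libraries were found among 10909 genes, as a description. For Cyp7a1 it was Tnks1bp1 (Pearson r = 0.996, and 0.996 without the 2 libraries farthest from the median), followed by Por, the electron donor gene of cytochromes P450 (0.980 and 0.968). For Cyp7b1 it was Hsd3b5, a male-biased steroid dehydrogenase gene (0.994 and 0.979), and for Slc10a1 it was Pias2 (0.992 and 0.987). For Cyp27a1 it was Mup2 (0.995 and 0.996), a gene of the major urinary proteins, whose near-identical paralogs make single values uncertain. For Cyp8b1 the best match, Tbc1d17, dropped to 0.824 from 0.968 without Ercc1 library 1 and WT library 2. All such values share the genotype split of the 8 libraries and their depth scaling.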

How the data were processed

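The authors deposited raw counts per gene for 8 liver libraries of total RNA (stranded kit, per the labels' protocols). The submitters' processing notes name GRCm38, the aligner HISAT2 2.1.0, the counter featureCounts and FastQC. The annotation release, the strand setting and the treatment of reads with several alignments are not given in the sources used here. From the deposited counts, genes were filtered with filterByExpr, scaled with TMM factors and tested by edgeR 4.0.16 (limma 3.58.1, R 4.3.3) with quasi-likelihood F tests of 3 contrasts in 1 fit of all 8 libraries (5 residual and 3.67 prior degrees of freedom). Adjusted p-values (Benjamini-Hochberg, all tested genes) under 0.05 were called. A standard error is the absolute log2 change over the square root of F, and intervals are 95%. The code was tested on simulated data.

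Alternatives were RLE, upper-quartile and no factors, no filter or 1 CPM in 2 libraries, DESeq2 1.42.0, limma-voom, a fit of the pair of groups alone, an age term, and each library left out. Where a group is left with 1 library, that library is assumed to vary like the other groups. Lists and the order of levels without WT library 3 were added after the data were seen. Exon lengths, overlaps and positions are from GENCODE vM21 (GRCm38). Each mouse gave 1 library and the design calls the mice independent. The 10 genes and all lists were chosen with earlier results of these data known. Named genes are the 10, plus up to 4 per list with the smallest p against WT (some are left out here), and for likeness the 3 genes with the highest correlation at an average log2 CPM of at least 1. Figures were drawn with matplotlib 3.10.9 in Python 3.11.15.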

Additional observations from a re-analysis of the deposited data

Results flagged for a closer look

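Cyp7b1 in WT library 3 was at 235 CPM, far from the 37.8 to 56.9 CPM of the other 3 WT livers: its gap to the next library was 0.903 of the range of the group, above Dixon's 95% limit for 4 samples. Chance flags about 1 in 20 such groups, and 10 groups were examined. The same library held 3087 summed counts of 4 Y-linked genes, outside the comparisons above, where the Ercc1 library with the most held 10 and the other 6 held 0.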

How the results depend on the processing

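No paired analysis was possible because the labels pair no mice across the groups. In Ercc1 against WT, 5 of the 10 bile acid genes were called in the analysis as reported, 3 with upper-quartile factors, 3 with library size alone (2 lower and 1 higher), 2 with only the 2 groups and 0 with age as a covariate, and 1 to 6 with a library left out. Genes called over the whole table numbered 3243, but 41 with age as a covariate and 1157 to 3408 with a library left out. In NemoDK_Ercc1 against WT, 6 of the 10 were called, but 3 with upper-quartile factors, 2 with library size alone, 3 with only the 2 groups and 3 with age as a covariate, and 1 to 6 with a library left out, while 2800 genes in all became 537 to 3016. The cause was not tested. In NemoDK_Ercc1 against Ercc1, 0 genes became 65 without a filter (2 of the 10), 69 with DESeq2 (1 of the 10), 1 with only the 2 groups, and 0 to 2 with a library left out (0 of the 10 in each).

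Of 510 single values of the 10 genes under an alternative, 10 changed sign, 69 lost a call, 11 gained one and 420 did neither. The sign changes were, in Ercc1 against WT, Cyp8b1 at 0.0088 with library size alone, 2.49 with age as a covariate and 0.46 without Ercc1 library 1 (range -1.73 to 0.46 over libraries left out), and Abcb11 at 0.31 with age as a covariate. In NemoDK_Ercc1 against WT they were Nr1h4 at 0.13 with library size alone, Cyp8b1 at 0.036 with age as a covariate and Cyp7a1 at 0.19 without WT library 2 (range -0.60 to 0.19). In NemoDK_Ercc1 against Ercc1 they were Cyp8b1 at 0.30 with limma-voom and 1.38 without Ercc1 library 2 (range -0.80 to 1.38), and Slc10a1 at -0.20 with age as a covariate. None of these values or their main values was called, and the cause was not tested. Each of the 10 genes had at least 173 counts in every library.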
